A study of Homo sapiens with 4 samples.

Results

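The genes described here are 10 regulators of the entry into mitosis and of its end, out of 56865 annotated genes. They were taken by symbol after estimated reads were summed per gene: the kinases CDK1, PLK1 and AURKA, the AURKA activator TPX2, the CDK1-inhibiting kinases WEE1 and PKMYT1, the phosphatases CDC25B and CDC25C, the APC/C activator CDC20 and the ubiquitin-conjugating enzyme UBE2C. All 10 passed the filter on low counts. The RNA came from MDA-MB-468, a human triple negative breast cancer line whose name the sample labels spell MDA-MD-468. The treated libraries (n = 2) come from cells at passage 12 exposed to MS1943 at 5 µM over 3 days, and the vehicle libraries (n = 2) from passage 12 cells exposed to DMSO, for which the labels state no time. The title of the series calls MS1943 a degrader of EZH2, the histone methyltransferase of Polycomb repressive complex 2. The data cover 1 line, 1 dose and 1 time. The titles of the MS1943 libraries carry 3 letters each and those of the DMSO libraries 1, and the labels do not say whether the 3 letters mean pooled dishes. Dishes were seeded in duplicate and nothing says that the duplicates came from separate cultures, so p-values rest on a spread between samples that may be technical only.

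CDK1, bound to cyclin B, is the kinase that starts mitosis. WEE1 and PKMYT1 hold it inactive by phosphorylating its ATP-binding loop, and the CDC25 phosphatases remove those phosphates. PLK1 and AURKA speed this switch and build the spindle. The anaphase-promoting complex, APC/C, with its activator CDC20 and the enzyme UBE2C, then marks cyclin B and securin for destruction, which ends mitosis. Transcripts of most of these genes peak in G2 and mitosis, and a CHR element in the promoter, bound by the DREAM and MuvB complexes, is known for many genes with this timing.

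The promoters of 5 of the 10 genes (CDK1, PLK1, CDC25B, CDC25C and CDC20) could be read from the RefSeq promoter table on GRCh38.p14, and they are shown because transcripts of all 10 genes fell together. The CHR motif was searched as TTTGAA or TTCGAA, and the CCAAT box as CCAAT, each on both strands, in the 250 bases before each annotated start. Neither motif contains the other, although their outer letters could share bases; in the stretches shown none do. Each stretch below runs up to 60 bases before the CHR match nearest to a start and up to 20 after it, 5′ to 3′ on the gene's strand, with CHR and CCAAT matches in capitals.
CDK1: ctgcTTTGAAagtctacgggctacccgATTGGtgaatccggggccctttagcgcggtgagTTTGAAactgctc
PLK1: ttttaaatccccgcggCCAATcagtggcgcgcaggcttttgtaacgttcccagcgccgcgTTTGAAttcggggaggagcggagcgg
CDC25B: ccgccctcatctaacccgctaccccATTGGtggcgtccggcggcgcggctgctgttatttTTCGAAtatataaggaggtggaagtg
CDC25C: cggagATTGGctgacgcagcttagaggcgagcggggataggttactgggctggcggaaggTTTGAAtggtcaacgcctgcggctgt
CDC20: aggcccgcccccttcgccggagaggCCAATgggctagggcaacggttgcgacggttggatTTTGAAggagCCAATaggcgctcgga

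The CDK1 stretch is chr10:60778405-60778477 (plus strand), and that of PLK1 is chr16:23678800-23678885 (plus). CDC25B is shown at chr20:3796212-3796297 (plus), CDC25C at chr5:138331809-138331894 (minus) and CDC20 at chr1:43358856-43358941 (plus). The first base of the CHR match nearest to the start lies at -13 (CDK1, whose stretch holds another at -69), -29 (PLK1), -38 (CDC25B), -30 (CDC25C) and -65 (CDC20), counted from the annotated start of the promoter it was found in. Several of these genes have more than 1 annotated start, and each added start gives another chance of a match. Of the 12 annotated promoters of the 5 genes, 6 held a CHR match and 8 a CCAAT match, and 6 held both. Over all 35116 promoters of the table, 14.3% held a CHR match, 32.0% a CCAAT match and 5.05% both. Counted by gene, all 5 held both in at least 1 promoter, against 6.24% of 27305 genes. As the CHR element is known for many genes of this timing, matches in these 5 could be foreseen. A match of letters is a description of the sequence and no binding was measured. Whether the motifs had a part in the fall was not tested.

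All 10 genes were lower after MS1943. By the edgeR quasi-likelihood test over 19358 genes, adjusted after Benjamini-Hochberg, 10 of 10 passed an adjusted p of 0.05 in the lower direction, beside 29.4% of all tested genes. Changes in either direction were common, at 59.3% of tested genes. The median log2 fold change (MS1943 over DMSO) of the 10 genes was -0.87, and that of all tested genes was -0.01. In each of the 10, both MS1943 libraries lay below both DMSO libraries, which held for 39.9% of tested genes. Scaled by total reads instead, 10 of 10 were still called lower with a median of -0.98, while the median of all tested genes moved to -0.12 and 39.8% of all calls were higher ones, against 50.5% with TMM scaling. The fall reached at least 2-fold in 2 of the 10, CDK1 and CDC25C, beside 7.93% of all tested genes. That count was 5 with total-read scaling (with PLK1, TPX2 and CDC20), beside 9.59% of tested genes. It was 3 with no filter (with PLK1), beside 4.96% of tested genes. As each library was left out, the log2 fold change of PLK1 spanned -1.01 to -0.97 and that of CDC20 -1 to -0.9, so both lay near the 2-fold limit. In bulk RNA, fewer cells in G2 and mitosis and less of these RNAs per cell cannot be told apart.

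**Figure D1:**
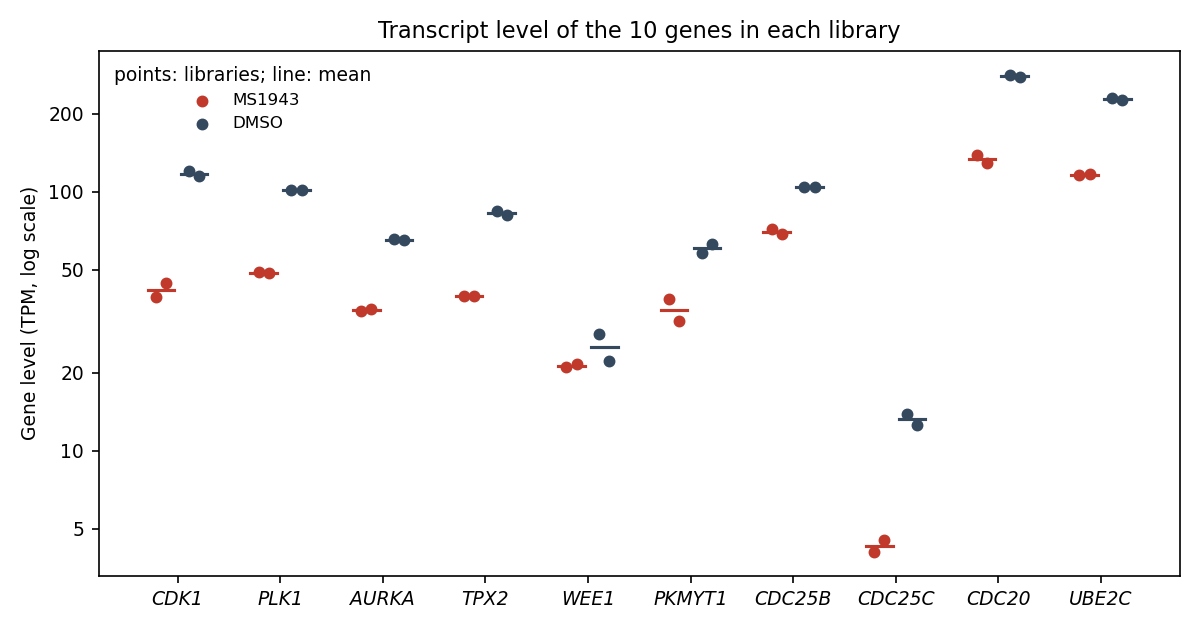
Gene level in TPM (log axis) of each of the 10 genes, with 1 point per library and a line at the mean of n = 2, MS1943 in red and DMSO in dark blue. The MS1943 points lie below the DMSO points for every gene; the gap is narrow for WEE1 (21.0 and 21.5 against 28.2 and 22.1 TPM) and wide for CDC25C (4.07 and 4.53 against 13.9 and 12.6 TPM).

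The libraries held 69878745 and 47564377 (MS1943) and 64720699 and 71378893 (DMSO) estimated reads. Epithelial and basal markers of the line were abundant. The summed level of 5 epithelial markers was 4420 and 4450 TPM with MS1943, against 5920 and 5920 TPM with DMSO, with 3 of 5 called lower and 0 higher. The summed level of 7 basal markers was 6000 to 6580 TPM with MS1943 and 2300 to 2460 TPM with DMSO, KRT5 being the highest. Of these 7, 6 were called higher and 1 lower. For PGR, a receptor the class lacks, 0 reads were listed in each of the 4 libraries, a count that leaves room for up to 0.0631 CPM by counting error alone. ESR1, the other such receptor, was low at 1.16 and 1.08 TPM with MS1943, against 1.08 and 0.851 TPM with DMSO, and was called higher. Of the 5 leukocyte markers CD14 was the highest, at 95.9 and 103 TPM with MS1943 and 187 and 189 TPM with DMSO, while PTPRC was at 0.087 TPM or less in every library. The summed fibroblast list stood at 15.8 to 18.7 TPM with MS1943 and 12.9 to 14.9 TPM with DMSO, most of it COL1A1, and the endothelial list at 0.725 to 0.881 TPM and 2.11 to 2.31 TPM. Mitochondrially encoded genes took 3.52% and 3.11% of reads with MS1943, against 1.65% and 1.78% with DMSO. The part of these differences in the results was not tested.

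Among the kinases that drive entry, CDK1 fell the most. Its level was 49.3 and 55.4 CPM (reads scaled to library size by TMM) in the MS1943 libraries, against 138.9 and 127.7 CPM in the DMSO libraries. The groups stood far apart, with a log2 fold change of -1.35 ± 0.06 (SE) and an edgeR adjusted p of 1.2e-12, or 39.2% of the DMSO level. CDK1 (ENSG00000170312) lies on chromosome 10 from 60778331 to 60794852 on the plus strand (hg38, GENCODE 29, as are all gene positions here). PLK1, the polo-like kinase that activates CDC25C and recruits spindle assembly factors, stood at 69.7 and 69.4 CPM with MS1943, against 139.8 and 135.9 CPM with DMSO. The replicates of PLK1 nearly coincided in each group, and its log2 fold change was -0.99 ± 0.05 (edgeR adjusted p = 9.7e-12). PLK1 (ENSG00000166851) spans 23677656 to 23690367 on chromosome 16, plus strand.

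AURKA, the kinase that matures centrosomes and activates PLK1, had 41.7 and 41.3 CPM with MS1943, against 73.6 and 69.4 CPM with DMSO. Its fall was smaller than those of CDK1 and PLK1 in the same fit, with a log2 fold change of -0.78 ± 0.06 (edgeR adjusted p = 6.2e-10), and the groups did not overlap. TPX2, the spindle protein that switches AURKA on and carries it to microtubules, had 100.7 and 100.1 CPM with MS1943, against 199.5 and 184.2 CPM with DMSO. TPX2 thus fell to 52.3% of its DMSO level (log2 fold change -0.93 ± 0.06, edgeR adjusted p = 4.7e-11). AURKA stood at 58.1% of its DMSO level, and the difference between the genes is taken up with the TPM ratios. Both genes lie on chromosome 20, AURKA (ENSG00000087586) from 56369389 to 56392337 on the minus strand and TPX2 (ENSG00000088325) from 31739271 to 31801805 on the plus strand.

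The kinases that restrain CDK1 fell by unequal amounts. WEE1, the nuclear kinase that phosphorylates CDK1 on tyrosine, had 35.1 and 39.1 CPM with MS1943, against 44.3 and 41.8 CPM with DMSO. The nearest MS1943 and DMSO libraries were close, and the change was the smallest of the 10, a log2 fold change of -0.22 ± 0.07 (edgeR adjusted p = 0.0076). The WEE1 call ended without MS1943 replicate 1 (-0.15, edgeR adjusted p = 0.108) and when the fit allowed for the length of the transcripts used (-0.13, edgeR adjusted p = 0.344). PKMYT1, the membrane-bound kinase that phosphorylates threonine and tyrosine of CDK1, had 40.1 and 37.1 CPM with MS1943, against 61.4 and 66.4 CPM with DMSO. The PKMYT1 groups stood clearly apart (-0.73 ± 0.06, edgeR adjusted p = 5.3e-09).

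WEE1 (ENSG00000166483) is on chromosome 11, 9573681 to 9593457, plus strand, and PKMYT1 (ENSG00000127564) on chromosome 16, 2968024 to 2980539, minus strand. Exons of PKMYT1 overlap those of PAQR4 and KREMEN2 on the other strand. The library kit does not mark strand, so reads from the overlapping parts cannot be told apart. PAQR4 was itself lower, at 46.0 and 44.5 CPM with MS1943 against 61.5 and 64.1 CPM with DMSO (log2 fold change -0.47 ± 0.06, edgeR adjusted p = 6.5e-07). KREMEN2 had 6.41 and 6.12 CPM with MS1943, against 10.27 and 10.08 CPM with DMSO, and was also lower (-0.70 ± 0.10, edgeR adjusted p = 4.4e-06). How much these neighbours contributed to the PKMYT1 value was not tested.

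The phosphatases that release CDK1 also differed from each other. CDC25C, which acts with PLK1 and CDK1 in the feedback at mitotic entry, was the least abundant of the 10, with 343 and 255 estimated reads in the MS1943 libraries and 1019 and 1023 in the DMSO libraries. At 5.16 and 5.57 CPM with MS1943, against 15.5 and 13.6 CPM with DMSO, it showed the largest fall of the 10 (-1.44 ± 0.10, edgeR adjusted p = 2.4e-10). CDC25B, held to be the starter phosphatase that acts at the centrosome in G2, had 134.3 and 127.7 CPM with MS1943, against 185.1 and 180.4 CPM with DMSO. Its fall, to 71.7% of the DMSO level, was the second smallest (-0.48 ± 0.06, edgeR adjusted p = 3.6e-07), and its groups did not overlap. CDC25A, the paralog that also serves S phase, had 14.16 and 13.97 CPM with MS1943, against 25.0 and 25.3 CPM with DMSO (-0.84 ± 0.07, edgeR adjusted p = 3.8e-09). All 3 paralogs were thus called lower.

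CDC25B (ENSG00000101224) spans 3786772 to 3806121 on chromosome 20, plus strand. CDC25C (ENSG00000158402) spans 138285265 to 138338355 on chromosome 5, minus strand, where its exons overlap FAM53C on the other strand. FAM53C had 109.9 and 106.3 CPM with MS1943, against 104.4 and 98.1 CPM with DMSO, and did not pass (log2 fold change 0.095 ± 0.055, edgeR adjusted p = 0.152). Its reads outnumbered those of CDC25C in all 4 libraries, and the share of CDC25C reads that could come from FAM53C was not tested.

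CDC20, which brings substrates to the APC/C in mitosis, was the most abundant of the 10 in every library. It had 152.3 and 141.8 CPM with MS1943, against 289.5 and 273.3 CPM with DMSO, so that the MS1943 libraries held 52.3% of the DMSO level (-0.94 ± 0.06, edgeR adjusted p = 7.1e-11). UBE2C, which starts ubiquitin chains on APC/C substrates, had 51.6 and 51.8 CPM with MS1943, against 92.4 and 88.4 CPM with DMSO. Its log2 fold change was -0.81 ± 0.05 (edgeR adjusted p = 2.5e-10), and both groups were tight. CDC20 (ENSG00000117399) lies on chromosome 1 from 43358955 to 43363203 and UBE2C (ENSG00000175063) on chromosome 20 from 45812576 to 45816957, both on the plus strand. The processed pseudogene UBE2CP5, whose reads may be shared with UBE2C by similarity, held 129 and 64 estimated reads with MS1943 and 92 and 108 with DMSO. That is a small number beside the 3427 and 2369 reads of UBE2C with MS1943 and the 6082 and 6635 with DMSO.

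**Figure D2:**
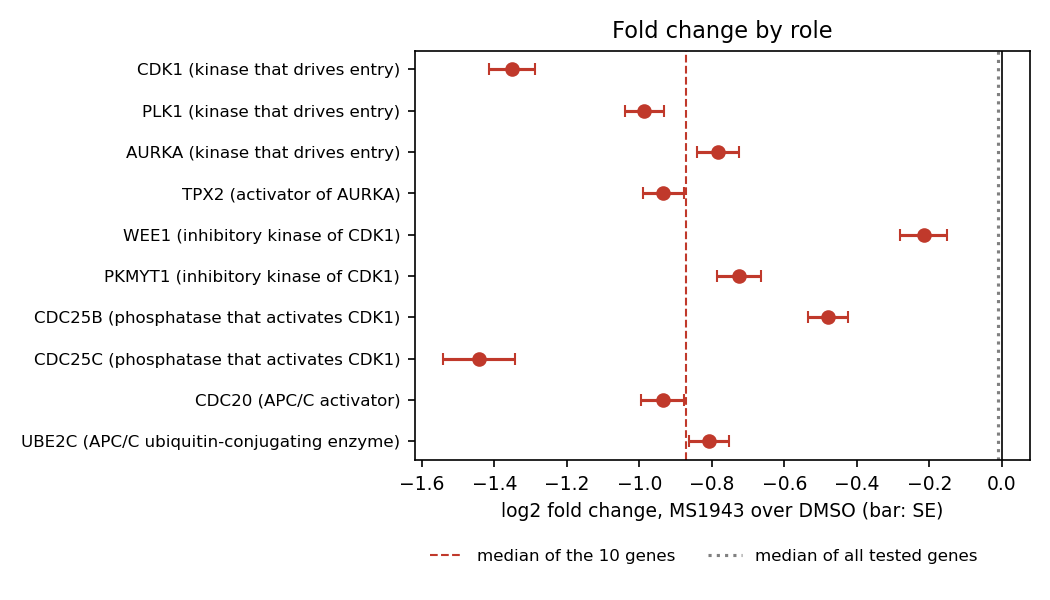
log2 fold change (MS1943 over DMSO) of each gene with its SE, ordered by role, from edgeR. All 10 points lie left of 0, from -1.44 (CDC25C) to -0.22 (WEE1), with a median of -0.87 (dashed) beside -0.01 for all tested genes (dotted).

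On the TPM scale, which allows for transcript length and so lets genes be compared, the order of levels differed between groups. With MS1943, CDC20 (133.7 ± 6.25 TPM, SD, n = 2) and UBE2C (116 ± 0.58 TPM) led, followed by CDC25B (70.1 ± 2.02 TPM) and PLK1 (48.6 ± 0.23 TPM). Next came CDK1 (41.8 ± 3.57 TPM) and TPX2 (39.6 ± 0.12 TPM), whose libraries overlapped, and PKMYT1 (34.98 ± 4.82 TPM) and AURKA (34.88 ± 0.44 TPM), whose libraries also overlapped. WEE1 (21.3 ± 0.36 TPM) and CDC25C (4.30 ± 0.32 TPM) were the lowest. With DMSO, CDC20 (279.9 ± 4.85 TPM) and UBE2C (228 ± 3.78 TPM) led too, but CDK1 (118 ± 3.13 TPM) stood next, above CDC25B (104 ± 0.01 TPM) and PLK1 (102 ± 0.39 TPM). TPX2 (82.8 ± 2.53 TPM), AURKA (65.4 ± 0.17 TPM), PKMYT1 (60.5 ± 3.25 TPM), WEE1 (25.1 ± 4.25 TPM) and CDC25C (13.2 ± 0.92 TPM) followed, and no neighbours in the DMSO order had overlapping libraries. CDC25B thus stood above CDK1 and PLK1 in both MS1943 libraries and below CDK1 in both DMSO libraries.

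Ratios of TPM between partner genes show the same inequality within each library, free of library scaling. In all 8 pairs were compared, each with the exact two-sided permutation test of 2 against 2 libraries, which cannot give a p below 0.333. Every pair gave that smallest value (p = 0.333, also after Benjamini-Hochberg adjustment, exact test), so none could be called. CDK1 stood 1.87 and 2.06 times above WEE1 with MS1943, against 4.26 and 5.21 times with DMSO, a log2 difference of -1.26. The ratio of CDC25C to CDC25B was 0.057 and 0.066 with MS1943, against 0.133 and 0.121 with DMSO, a log2 difference of -1.05. In each of the 8 pairs, not only in these, the ratio moved by more than the SD of either group. How often other pairs of genes do so was not counted, and each SD rests on 2 libraries, so this is a description only.

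The ratio of WEE1 to PKMYT1 was 0.548 and 0.682 with MS1943, against 0.484 and 0.353 with DMSO (log2 difference 0.57, with SDs of 0.22 and 0.32). The ratio of CDC20 to FZR1, the activator that takes over the APC/C late in mitosis and in G1, was 5.09 and 5.33 with MS1943, against 10.1 and 8.79 with DMSO (log2 difference -0.85). FZR1 transcripts themselves did not pass, at 40.5 and 38.8 CPM with MS1943 against 42.6 and 43.3 CPM with DMSO (log2 fold change -0.11 ± 0.06, edgeR adjusted p = 0.102), though they were called lower when libraries were scaled by total reads (-0.23, edgeR adjusted p = 0.00319). PLK1 was above CDK1 with MS1943 (ratios 1.24 and 1.09) and below it with DMSO (0.847 and 0.884). AURKA to AURKB, the Aurora kinase of the kinetochore and midbody, was 1.01 and 1.09 with MS1943, against 0.781 and 0.731 with DMSO. The ratios of AURKA to TPX2 and of UBE2C to UBE2S, the enzyme that extends ubiquitin chains, moved least, with log2 differences of 0.16 and -0.11.

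**Figure D3:**
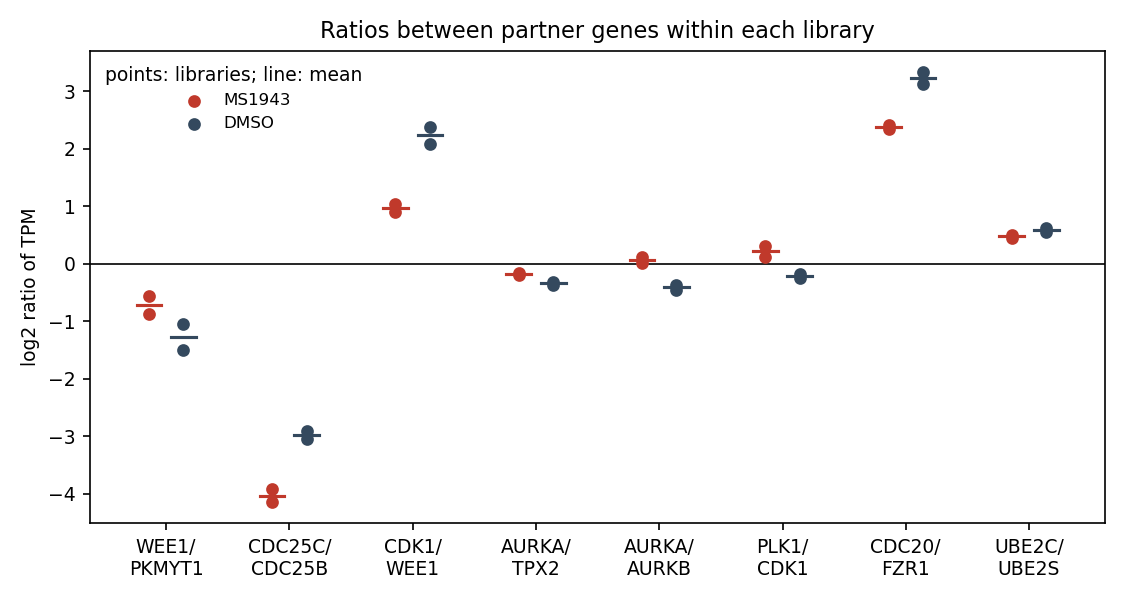
log2 ratio of gene TPM for 8 pairs, with 1 point per library and a line at the mean of n = 2, MS1943 in red left of DMSO in dark blue. CDK1/WEE1 is lower by 1.26 and CDC25C/CDC25B by 1.05 with MS1943, whereas AURKA/TPX2 and UBE2C/UBE2S differ by less than 0.2.

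The deposited files also separate annotated transcripts, of which the 10 genes had 91. Of these, 71 could be tested among 74941 tested transcripts of all genes, and 18 of the 71 were lower and 0 higher, beside 6.21% and 6.23% of all tested transcripts. The estimates share reads between overlapping transcripts by a model, and the error of that step is not in the files, so these tests understate the error. No share of calls was counted over all tested transcripts that hold at least 10% of the reads of their gene. Among the 19 such transcripts of the 10 genes, 12 were called lower, a count for which the 6.21% of all tested transcripts is no background. That count was 5 without MS1943 replicate 1, 7 without MS1943 replicate 2, 8 without DMSO replicate 1 and 9 without DMSO replicate 2. Depth differed widely among the 19: CDC25C-203, which was not called, had 51 and 14 reads with MS1943, against 131 and 114 with DMSO. PLK1-201 and TPX2-201 held 98.2% and 99.1% of the reads of their genes, so each gene value is nearly that of 1 transcript. CDK1-203 held 87.9% of CDK1 reads and had a log2 fold change of -1.44 ± 0.09 (edgeR adjusted p = 0.00553).

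CDC25B was divided between transcripts that moved unequally. CDC25B-205, which held the most reads, stood at 68.8 and 67.0 CPM with MS1943, against 69.9 and 85.4 CPM with DMSO, and was not called (-0.19 ± 0.11, edgeR adjusted p = 0.342). CDC25B-201 stood at 21.97 and 20.87 CPM with MS1943, against 41.3 and 41.5 CPM with DMSO (-0.95 ± 0.07, edgeR adjusted p = 0.00748). CDC25B-206, a transcript annotated without a coding sequence, was called lower (-0.76 ± 0.13, edgeR adjusted p = 0.0344), a call that ended with any 1 of the 4 libraries left out (edgeR adjusted p of 0.0518 to 0.136). The call of CDC25B-201 ended without MS1943 replicate 1 (-0.99, edgeR adjusted p = 0.0509). The share of CDC25B reads given to CDC25B-201 was therefore 16.7% and 16.8% with MS1943, against 21.5% and 22.6% with DMSO. CDC25B-202 was not called (-0.235 ± 0.132, edgeR adjusted p = 0.325). CDC25B-203, at 9.93% of the reads, had 11.5 and 4.56 CPM with MS1943, against 36.8 and 14.9 CPM with DMSO. It was not called (-1.68 ± 0.63, edgeR adjusted p = 0.172). From DMSO replicate 1 to 2 its share of reads went from 19.2% to 8.1%, and that of CDC25B-205 from 36.45% to 46.4%. The difference between these transcripts, and the part of read sharing in it, was not tested.

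CDC20 showed a similar division. CDC20-202 held 19.0% and 17.1% of CDC20 reads with MS1943, against 23.1% and 24.3% with DMSO, and CDC20-201 held most of the remainder. Both were lower, with log2 fold changes of -0.91 ± 0.07 for CDC20-201 and -1.40 ± 0.11 for CDC20-202 (edgeR adjusted p = 0.00791 and 0.00757). For WEE1, neither WEE1-201 (-0.42 ± 0.10, edgeR adjusted p = 0.0612) nor WEE1-202 (-0.18 ± 0.15, edgeR adjusted p = 0.486) was called. AURKA was spread over 4 such transcripts, of which AURKA-202 and AURKA-206 were called lower and AURKA-208 and AURKA-201 were not. CDC25C-201, PKMYT1-201 and UBE2C-204, which held 74.1%, 74.4% and 89.2% of the reads of their genes, were called lower. With 1 library left out these transcript calls often ended: AURKA-202 and AURKA-206 without any 1 of the 4 (adjusted p of 0.0562 to 0.089), CDC25C-201 without either MS1943 library or DMSO replicate 1 (0.0532 to 0.0545), PKMYT1-201 without either MS1943 library or DMSO replicate 2 (0.0537 to 0.0754), and UBE2C-204 without MS1943 replicate 1 (0.0558). AURKA-208 and WEE1-201 were called lower under several other settings, among them total-read scaling (edgeR adjusted p = 0.0472 for AURKA-208 and 0.0357 for WEE1-201), and AURKA-201 was called lower with no filter on low counts (edgeR adjusted p = 0.0397) and in the DESeq2 Wald test (adjusted p = 0.0118).

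Transcripts annotated as protein coding made up most of the TPM of every gene, from 68.1% to 100% over genes and libraries. For PLK1 that share was 92.5% and 93.8% with MS1943, against 96.5% and 96.2% with DMSO, a difference of -3.19 percentage points (-1.03 when counted by reads). WEE1 varied widely within groups, with 68.1% and 80.6% with MS1943 and 71.2% and 96.2% with DMSO. No difference in WEE1 could be seen over that spread.

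**Figure D4:**
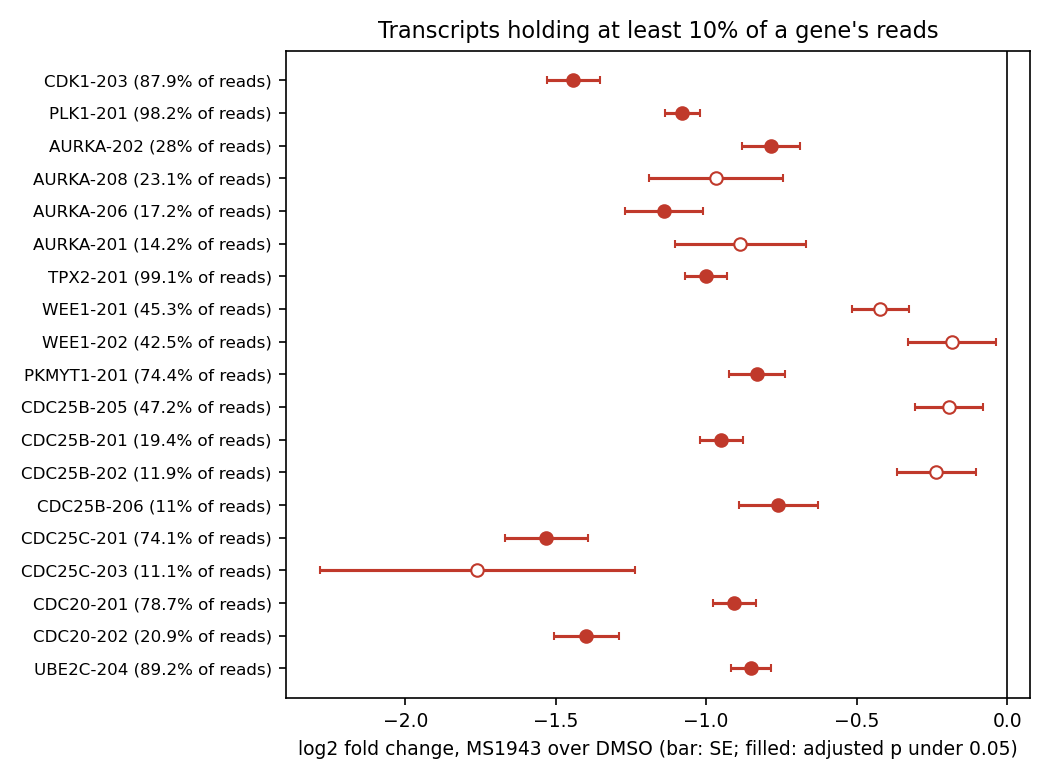
log2 fold change (MS1943 over DMSO) with SE of the 19 transcripts that hold at least 10% of the reads of their gene, filled where the edgeR adjusted p is under 0.05. The 12 filled points lie left of 0; the open points include both WEE1 transcripts and CDC25B-205.

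Around the 10 genes, 116 of 118 further genes of the same machinery could be tested, in 11 lists by role. The lists were chosen with earlier results of these data known, so their counts are descriptions and not tests. Of the 116, 72 were lower, 30 higher and 14 did not pass, with a median log2 fold change of -0.32, beside 29.4% lower and 30.0% higher among all tested genes. The cyclins that bind CDK1 fell: CCNB1 had 79.6 and 80.7 CPM with MS1943, against 159.1 and 147.5 CPM with DMSO (-0.94 ± 0.06, edgeR adjusted p = 4.2e-11). CCNA2 (-1.64 ± 0.06) and CCNB2 (-1.26 ± 0.06) were lower as well. The log2 fold changes given for further genes are from the same edgeR fit. Of the 10 genes in that list of partners and of the CDK-activating kinase, 5 were lower and 4 higher. The higher genes were CCNB3, a low-level meiotic cyclin, and the CDK-activating kinase genes CDK7, CCNH and MNAT1, chosen for naming after their values were seen. The count of higher genes was 2 with total-read scaling, 2 without DMSO replicate 2 and 1 with length offsets.

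Of 4 tested relatives and the activator of PLK1, 3 were lower and PLK3 was higher. PLK3, a stress-responsive paralog, had 18.9 and 18.3 CPM with MS1943, against 7.43 and 7.20 CPM with DMSO (1.35 ± 0.08, edgeR adjusted p = 4.1e-11). PLK2 (-1.05 ± 0.06) and PLK4, the centriole duplication kinase (-1.06 ± 0.07), were lower. In the Aurora and chromosomal passenger list 4 of 5 were lower, among them AURKB (-1.23 ± 0.06), borealin CDCA8 (-1.19 ± 0.05) and survivin BIRC5 (-1.56 ± 0.06). Of 5 other AURKA cofactors, 3 were lower, with CEP192 (-0.79 ± 0.05) and AJUBA (-0.32 ± 0.06) among them, and NEDD9 was called higher (0.30 ± 0.08, edgeR adjusted p = 0.00301). The NEDD9 call ended with total-read scaling (0.19, edgeR adjusted p = 0.0883), with transcript length offsets (0.28, edgeR adjusted p = 0.118) and without MS1943 replicate 2 (0.14, edgeR adjusted p = 0.166). The AJUBA call ended with the length offsets (-0.17, edgeR adjusted p = 0.0586). Of 10 other mitotic kinases, 9 were lower, including BUB1 (-1.07 ± 0.06), TTK (-1.03 ± 0.06) and NEK2 (-1.05 ± 0.07). The other one, NEK9, named here after its value was seen, was called higher (0.16 ± 0.06, edgeR adjusted p = 0.0259). That call ended under total-read scaling, in the DESeq2 Wald test, with no filter on low counts, and without MS1943 replicate 1, MS1943 replicate 2 or DMSO replicate 2, where 0 of the list were higher.

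The list of mitotic exit phosphatases and their inhibitors was divided, with 7 of 15 tested lower and 6 higher (median -0.14). It also holds CDC25A, among the lower, and the PP2A inhibitors ENSA, lower (-0.16 ± 0.05), and ARPP19, higher (0.17 ± 0.05). PPP2R2A, the B55 alpha subunit that directs PP2A to CDK1 substrates, had 79.7 and 78.5 CPM with MS1943, against 51.3 and 47.7 CPM with DMSO (0.68 ± 0.06, edgeR adjusted p = 5e-09). PPP2R2C, another subunit of that family, had 74 and 52 estimated reads with MS1943 and 0 and 1 with DMSO. The APC/C core was divided too, with 7 of 14 subunits lower and 5 higher (median -0.08), ANAPC15 (-0.87 ± 0.07) and ANAPC11 (-0.55 ± 0.06) among the lower and CDC16 (0.42 ± 0.05) among the higher. The other subunits called higher, named after their values were seen, were ANAPC10, CDC23, CDC26 and CDC27. The APC/C core thus had a median near that of all tested genes, whereas its activator CDC20 and its enzyme UBE2C fell. The number of core subunits called higher was 2 with total-read scaling, and 3 without MS1943 replicate 2, with no filter or with length offsets.

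Among the other APC/C regulators 4 of 8 were lower and 1, UBE2D1, was higher (0.33 ± 0.07, edgeR adjusted p = 0.0005), a ubiquitin-conjugating enzyme named after its value was seen. Without DMSO replicate 1, or with length offsets, 2 were higher. The inhibitor genes MAD2L1, of the spindle checkpoint, and FBXO5, which encodes EMI1, fell by 0.95 ± 0.06 and 0.73 ± 0.06 on the log2 scale. UBE2S fell as well (-0.66 ± 0.06). All 12 listed substrates of the APC/C outside the 10 genes, a list also chosen with earlier results known, were lower, with a median of -1.23. Among them were KIFC1 (-1.44 ± 0.06), RRM2 (-1.60 ± 0.06) and TK1 (-1.43 ± 0.06). The smallest change, that of the replication licensing factor CDC6, named after its value was seen (-0.13 ± 0.05, edgeR adjusted p = 0.0405), was not called with any 1 library left out or with DESeq2 size factors or its Wald test (adjusted p of 0.0515 to 0.112), which leaves 11 of 12.

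The G2 checkpoint list, which holds genes upstream of CDC25 and WEE1 and also regulators of CDK1 itself, had 6 of 14 genes lower and 6 higher (median -0.05). The largest changes were rises: GADD45A, a stress-induced inhibitor of CDK1-cyclin B, had 316.8 and 355.6 CPM with MS1943, against 43.2 and 46.6 CPM with DMSO (2.90 ± 0.07, edgeR adjusted p = 5.4e-17). CDKN1A, which encodes the CDK inhibitor p21, had 109.6 and 103.3 CPM with MS1943, against 17.5 and 17.0 CPM with DMSO. SFN, which encodes stratifin, a protein that holds CDK1 in the cytoplasm, had a log2 fold change of 1.003 ± 0.057 and was higher. CHEK1, the checkpoint kinase that phosphorylates CDC25 proteins, was slightly lower, at 76.9 and 77.7 CPM with MS1943 against 92.6 and 88.7 CPM with DMSO (-0.23 ± 0.05, edgeR adjusted p = 0.0012). Larger falls, named after their values were seen, were those of CLSPN (-0.83 ± 0.06), ATRIP (-0.69 ± 0.12), CHEK2 (-0.42 ± 0.07) and ATM (-0.33 ± 0.06).

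Of 19 DREAM, MuvB and E2F regulators, 12 were lower and 5 higher (median -0.41), the 5 being LIN37, LIN52, LIN54, TFDP2 and E2F3, named after their values were seen. FOXM1, the transcription factor that drives G2 and mitotic genes with MuvB, had 46.3 and 46.7 CPM with MS1943, against 123.8 and 115.9 CPM with DMSO (-1.37 ± 0.06, edgeR adjusted p = 1.9e-13). MYBL2, which binds MuvB in S phase, fell by 1.17 ± 0.06, and the E2F family members E2F1 and E2F8 fell by 1.21 ± 0.06 and 1.76 ± 0.08. RB1, whose loss is known in this line, was low, at 1.15 and 1.71 TPM with MS1943 and 1.07 and 1.55 TPM with DMSO, and it did not pass.

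**Figure D5:**
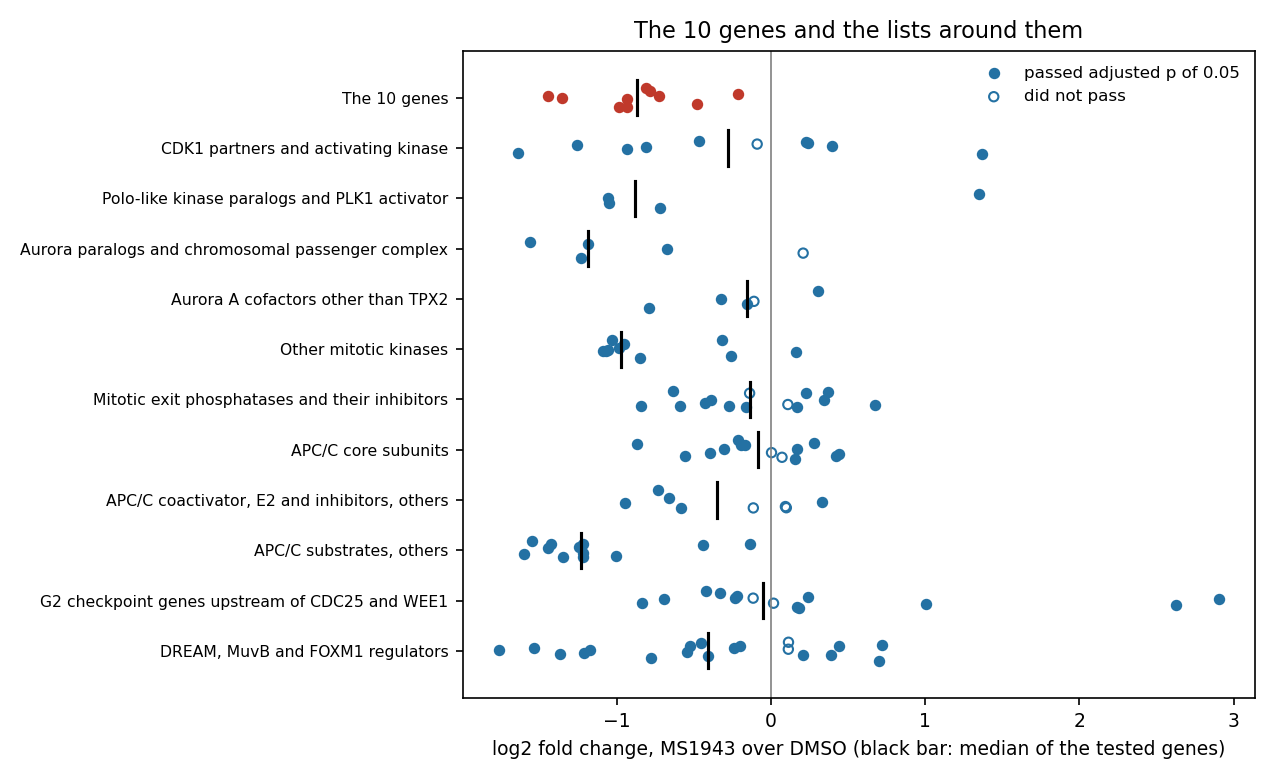
log2 fold change (MS1943 over DMSO) of the 10 genes (red) and of the tested genes of 11 lists (blue), filled where the edgeR adjusted p is under 0.05, with a black bar at the median of the list; PPP2R2C, at 0 and 1 reads with DMSO, is not drawn. The 10 genes (median -0.87) and the APC/C substrates (median -1.23) lie left of 0 throughout, whereas the APC/C core (median -0.08) straddles it.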

How the data were processed

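The submitters' processing notes name Salmon 0.9.1 with R 3.4.3 and DESeq2, and the build hg38; transcript annotation and options: not given in the sources used here. Per the labels, libraries were poly(A) selected and made with an unstranded TruSeq kit. The deposited estimated counts are Salmon's reads per transcript, and the deposited TPM values are scaled for effective transcript length, per the file headers. Of 197653 transcripts per file, 193505 matched GENCODE 29; the remainder, 0.482% to 0.496% of reads, was left out.

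Reads were summed per gene, rounded, and tested with edgeR 4.0.16 in R 4.3.3 (quasi-likelihood F test, TMM scaling, filterByExpr, treatment as the only term); transcripts were tested likewise. SE is the log2 fold change divided by the square root of F. CPM is TMM-scaled; TPM was summed per gene. The script was tested on simulated data with the same spread for every gene and 0 or 200 changed genes. With 0 changed, 0 of 18879 genes were called. With 200 changed, 14 of 18707 unchanged genes and 63 of 67 changed by 1.5-fold were called. In the data 59.3% of tested genes were called, so the simulation does not show how the fit behaves there. The replicates of each group were not duplicates of 1 library (chi-square over genes, divided by its degrees of freedom, 6.50 with MS1943 and 7.01 with DMSO). Reads carry no molecular identifiers.

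The members, lists and tests were chosen with earlier results of these data known. Named are all members, their ratio partners, up to 3 genes per list with the smallest adjusted p, and FOXM1, MYBL2, CCNB1, CDKN1A and CHEK1. Neighbouring genes were named for their overlap. ENSA, ARPP19, RB1 and the genes marked as named after their values were seen lie outside this rule. Alternatives were other scalings and filters, DESeq2 1.42.0, length offsets and leaving out each library.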

Additional observations from a re-analysis of the deposited data

How the results depend on the processing

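No paired analysis was possible because the labels give no replicate numbers or pairing; the numbers used here follow accession order and only name libraries. Each of the 10 genes kept its lower direction under every alternative, and the calls of 9 of them held in all; the WEE1 call ended with length offsets (-0.13) and without MS1943 replicate 1, its log2 fold change spanning -0.31 to -0.15 as each library was left out. As each library was left out, the log2 fold change of CDK1 spanned -1.45 to -1.28 and that of CDC25B -0.53 to -0.46. Total-read scaling gave 2 higher CDK1 partners, 0 higher AURKA cofactors, 0 higher other mitotic kinases and 2 higher APC/C core subunits. Length offsets gave 1 higher CDK1 partner, 2 changed AURKA cofactors of which 0 were higher, 3 higher core subunits and 2 higher APC/C regulators. The DESeq2 Wald test and the fit with no filter gave 0 higher other mitotic kinases, and no filter gave 3 higher core subunits. With 1 library left out, the counts of higher genes were 2 to 4 (CDK1 partners), 0 to 1 (AURKA cofactors), 0 to 1 (other mitotic kinases), 3 to 5 (APC/C core) and 1 to 2 (APC/C regulators). Transcript calls were the most fragile: 1828 to 2887 were called with 1 library left out (962 to 1348 lower, 866 to 1604 higher), against 4653 lower and 4666 higher with all 4. In that setting a group has 1 library, assumed to vary like the other group. The log2 difference of CDC25C to CDC25B was -0.86 on log2(TPM + 1), against -1.05. Protein-coding shares counted by reads differed by -1.03 (PLK1), 0.15 (CDC25C) and -0.02 (CDC20) percentage points. The causes were not tested. With 2 libraries a group, ratios could not reach a threshold, and CDC25C, at 255 to 1023 reads, had the widest SE of the 10 genes.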
